A study of Homo sapiens with 9 samples.

Results

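The genes that encode the proteins of the cytosolic ribosome were followed in Caco-2 cells, an established line from a human colon carcinoma that can form an epithelial layer resembling that of the gut. A member is a protein-coding gene whose symbol is RPL or RPS with a number and at most 1 of the letters A, X or L, or is RPLP0, RPLP1, RPLP2 or RPSA, with at least 15 counts in total over the libraries. Of 27655 genes, 77 were members, 47 of the large and 30 of the small ribosomal subunit. The rule matched 4 further symbols that held fewer counts in all libraries together, among them RPL10L with 0, RPS18 with 5 and RPL3L with 12. RPS18 encodes an ordinary ribosomal protein, and its level in the cells cannot be read from these counts, since how reads with several matching places were counted is not given in the sources used here. Poly(A) RNA was sequenced from 9 libraries, each of cells kept for 48 h with 10 µM lovastatin, a statin, in aMEM with lipid-depleted serum. The 3 groups of 3 libraries received no further compound, SGA360 at 10 µM, or SGA315 at 10 µM. The series' design names both as AHR ligands, that is, compounds that bind a transcription factor known for sensing dioxins and dietary indoles. Cells without lovastatin were not analysed here, and whether replicates were grown separately is not in the labels, so the p-values reflect the spread between libraries, which may be technical.

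Ribosomal proteins are needed in equal numbers, 1 of most of them per ribosome, and bind to ribosomal RNA in the nucleolus to form the small subunit, which decodes the mRNA, and the large subunit, which joins amino acids. In mammals their mRNAs are abundant, and most begin at a cytidine followed by a run of pyrimidines, the 5′ terminal oligopyrimidine tract (TOP). Through this tract, translation of these mRNAs depends on the kinase complex mTORC1 and on the binding protein LARP1. Several free ribosomal proteins, RPL5 and RPL11 first among them, bind MDM2 and so stabilise p53 when ribosome assembly is disturbed.

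The start of the transcript was therefore looked up for the members in RefSeq promoter windows (assembly GRCh38.p14, 250 bases before to 50 bases after the annotated start), and 62 of the 77 had one. The tract was searched at the annotated start on the gene's own strand as a C followed by at least 4 bases that are C or T. It was present in 45 of the 62 members, 72.58%, and in 5.142% of the 27305 genes with such a window (6.685% of the 11398 other genes tested below). The sequences below run from 10 bases before the annotated start to 20 bases from it, 5′ to 3′, with the tract in capitals where there is one. The first 6 belong to members that come up below for their rise or their difference between the ligands, the next 2 to a member that fell with SGA360 and a member not called with either ligand, and the last 3 to the members that fell with both ligands.
RPL26, chr17:8383174-8383203, minus strand: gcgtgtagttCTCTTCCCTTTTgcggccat
RPL39, chrX:119791611-119791640, minus strand: ccgccagcttCCCTCCTCTTCCTTTCTCCg
RPS25, chr11:119018324-119018353, minus strand: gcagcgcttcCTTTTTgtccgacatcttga
RPS23, chr5:82278335-82278364, minus strand: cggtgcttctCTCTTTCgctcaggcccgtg
RPL37A, chr2:216498834-216498863, plus strand: gcgtctcttcCTTTCTgggctcggacctag
RPS14, chr5:150449720-150449749, minus strand: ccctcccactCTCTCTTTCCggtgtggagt
RPL24, chr3:101686699-101686728, minus strand: atgattctctCTTTCTTTTCgccatctttt
RPL35, chr9:124861938-124861967, minus strand: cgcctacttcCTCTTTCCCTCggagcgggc
RPS26, chr12:56041908-56041937, plus strand: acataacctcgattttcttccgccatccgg
RPS15, chr19:1438386-1438415, plus strand: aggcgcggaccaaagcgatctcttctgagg
RPS27L, chr15:63157458-63157487, minus strand: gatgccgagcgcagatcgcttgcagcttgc
RPL24 and RPL35 thus start with tracts of 10 and 11 bases, as members that rose do, and the starts of RPS26, RPS15 and RPS27L hold none at the annotated base. RPS26 has the run ttttcttcc and RPS15 the run tctcttct shortly after that base. A tract that lies a few bases from the annotated start is not counted, and RPL9 and RPS29, both among the largest rises, also have none at the annotated base.

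Libraries held 12334004 to 16869998 counts, taking 1 transcript entry for each gene. The biological coefficient of variation was 2.16%, and the median coefficient of variation of the members between libraries of a group was 2.04% with lovastatin alone, 1.46% with SGA360 and 2.66% with SGA315. Levels are given in CPM, that is, counts relative to the library total after TMM scaling. Of the epithelial markers, CDH1, EPCAM, KRT8, KRT18, VIL1, CDX2 and CLDN7 were present, while KRT20 and LGALS4 were low, with a highest value of 1.05 CPM (LGALS4, 1 SGA315 library). The 7 present ones moved with the groups: in the order lovastatin alone, SGA360 and SGA315, KRT8 stood at 3461 to 3516, 2453 to 2749 and 1427 to 1546 CPM and KRT18 at 1605 to 1655, 1128 to 1235 and 699.9 to 735 CPM. EPCAM stood at 580.4 to 600.1, 439 to 445 and 396 to 419 CPM, and CDX2 at 75.1 to 76.8, 79.6 to 81.1 and 116 to 118 CPM, the one of these 7 that was higher with the ligands. Of 9 markers of other cells, 7 stayed under 2.1 CPM in every library; the exceptions were CD68, at 4.43 to 6.45 CPM, and ALB, at 92.4 to 124 CPM with lovastatin alone, 76.1 to 104 CPM with SGA360 and 50.7 to 64.1 CPM with SGA315. Summed, the 9 markers came to 100.2 to 130.4 CPM, 84.8 to 112 CPM and 60.3 to 72.3 CPM in the 3 groups, mostly ALB. Without ALB the sums went the other way, at 6.55 to 7.81 CPM, 7.25 to 8.69 CPM and 8.25 to 9.74 CPM. In the same order of groups, nuclear ribosomal RNA precursor genes (symbols starting with RNA45S) took 0.521 to 0.725%, 0.43 to 0.66% and 0.235 to 0.317% of the counts. Other nuclear ribosomal RNA genes were not summed. The ribosomal RNAs encoded in mitochondria (MT-RNR1 and MT-RNR2) held between 0.951 and 1.00% in the lovastatin libraries, between 1.22 and 1.31% after SGA360 and between 1.14 and 1.29% after SGA315, higher in every ligand library than in any with lovastatin alone. The part of these markers and shares in the results below was not tested.

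The comparison of each ligand with lovastatin alone asked how it changed expression in statin-treated cells, and most ribosomal protein genes rose slightly with both. With SGA360, 66 of the 77 members were higher, 4 were lower (RPL24, RPS15, RPS26 and RPS27L) and 7 were not called (edgeR quasi-likelihood test, Benjamini-Hochberg adjusted p under 0.05 over 14654 genes). Over all genes tested, 31.4% were called higher and 31.4% lower, 62.8% in all. The median log2 fold change of the members was 0.15, against 0.02 over all genes. With SGA315, 70 members were higher, 3 were lower (RPS15, RPS26 and RPS27L) and 4 were not called, where 36.1% of all genes were called higher and 33.2% lower, 69.3% together. Their median log2 fold change was 0.25, against 0.04 over all genes. Both comparisons use the same 3 lovastatin libraries. TMM scaling centres the bulk of genes, so that a rise is relative to the other mRNAs; fewer cells with a transcript and less of it per cell cannot be told apart. Scaled to library totals alone, the median of all genes moved to 0.14 and 0.16 for SGA360 and SGA315, and that of the members to 0.26 and 0.37, with 73 higher and 2 lower and 74 higher and 3 lower, where 44.1% and 47.2% of all genes were called higher and 21.4% and 24.8% lower.

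The changes were small. A called change of at least 1.25-fold was seen in 2 members with SGA360, RPL39L upward and RPS27L downward, and in 15 with SGA315, of which RPS27L alone went down. How many of all genes reached that size was not counted, so these numbers have no background beside them. The CPM values of the SGA360 libraries lay all above those with lovastatin alone in 65 members and all below in 5, where 33.4% of all genes were separated upward and 33% downward. For SGA315 the numbers were 69 and 3 members, where 36.6% and 33.8% of all genes were separated. The lower and upper quartiles of the members' log2 fold changes were 0.09 and 0.22 with SGA360, and 0.15 and 0.31 with SGA315. Those over all genes were −0.22 and 0.28 with SGA360, and −0.27 and 0.35 with SGA315.

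**Figure D1:**
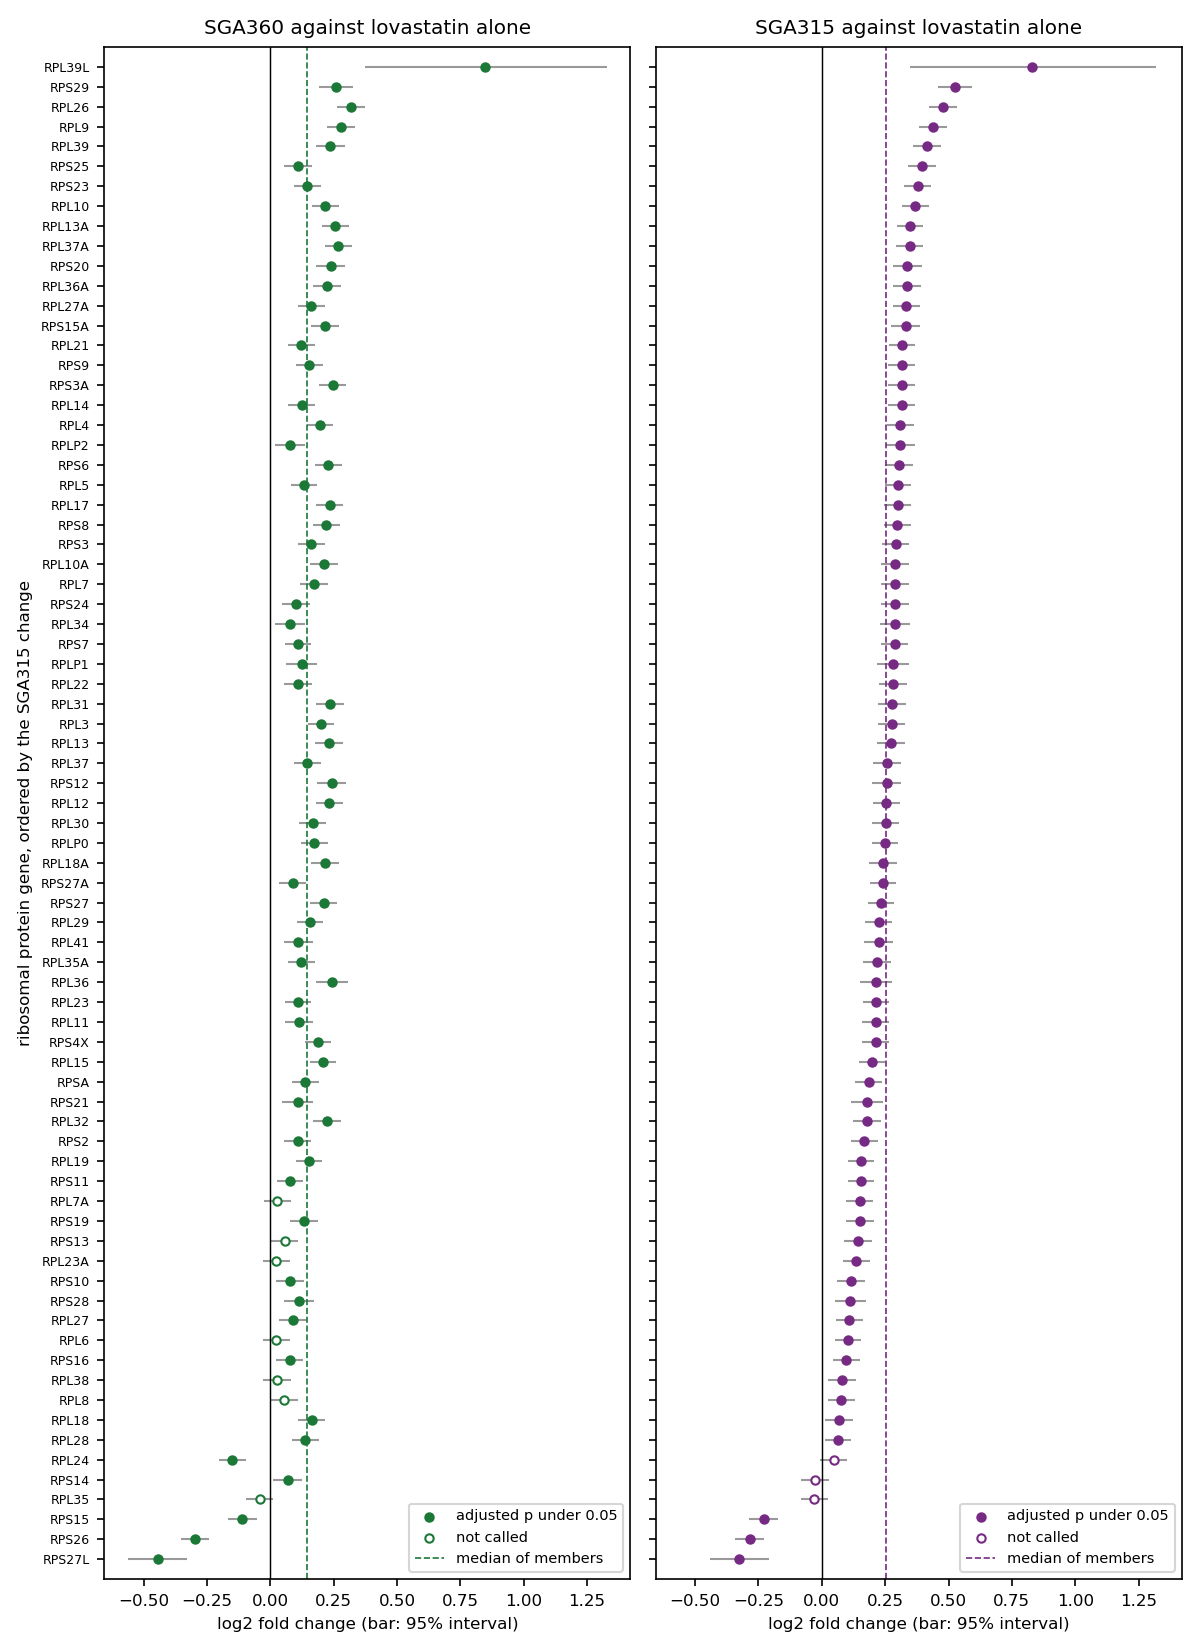
Log2 fold change (x axis) of 76 of the 77 ribosomal protein genes (y axis, ordered by the SGA315 change) with SGA360 and with SGA315 against lovastatin alone, with 95% intervals from the edgeR fit; filled points passed an adjusted p under 0.05, and dashed lines are the members' medians, 0.15 and 0.25. Most members lie right of 0, and RPS15, RPS26 and RPS27L lie left of it in both panels, RPS15 with SGA360 only under TMM and RLE scaling, not when scaled to totals.

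Genes of both subunits rose. With SGA360, 40 of the 47 large subunit members were higher and 1, RPL24, was lower, with a median log2 fold change of 0.16, and 26 of the 30 small subunit members were higher and 3 lower, with a median of 0.11. With SGA315, 45 of 47 were higher and 0 lower with a median of 0.26, and 25 of 30 were higher and 3 lower with a median of 0.22. Over all genes, 31.4% were called higher and 31.4% lower with SGA360, and 36.1% and 33.2% with SGA315. The difference between the subunits was not tested.
Summed over the family, ribosomal protein mRNA took 5.46, 5.49 and 5.62% of the counts with lovastatin alone, 6.64, 6.61 and 6.68% with SGA360 and 6.99, 7.22 and 7.03% with SGA315. The 3 groups did not overlap, and the share with SGA315 was the highest in each library. The means were 5.52 ± 0.083%, 6.64 ± 0.036% and 7.08 ± 0.12% (SD, n = 3 each), ratios of 1.20 and 1.28 to lovastatin alone. After TMM scaling the sums were 58363 ± 992, 64825 ± 156 and 68841 ± 1132 CPM, so the size of the rise depends on the scaling. The counts of the large subunit genes were 1.505, 1.533 and 1.537 times those of the small subunit genes in the 3 groups.

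**Figure D2:**
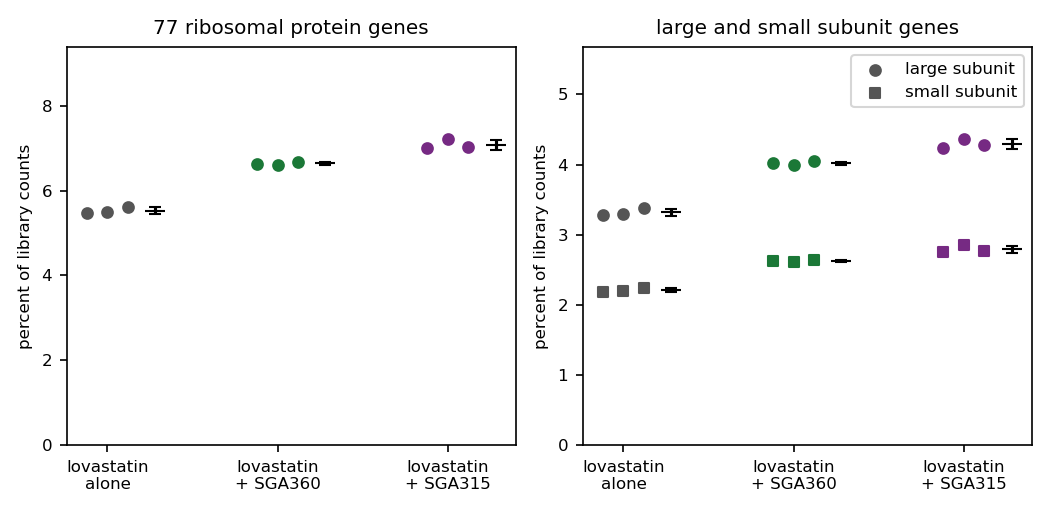
Percent of library counts (y axis) taken by all 77 ribosomal protein genes (left) and by the large and small subunit genes (right) in each of the 9 libraries, by group (x axis); bars are the mean ± SD of 3 libraries. The 3 groups are separate on the left, near 5.52, 6.64 and 7.08%.

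Among proteins of the large subunit, RPL26 led the well-expressed members that rose with SGA360. RPL26 contacts the RNA of the large subunit and is also known to bind p53 mRNA. Its level was 339, 340.2 and 349 CPM with lovastatin alone, 439.8, 418 and 424 CPM with SGA360 and 461, 487 and 484 CPM with SGA315. The groups did not overlap, and the rises were 0.32 ± 0.028 with SGA360 (log2, SE; edgeR adjusted p = 4.39e-16) and 0.48 ± 0.028 with SGA315 (edgeR adjusted p = 1.67e-24), folds of 1.247 and 1.392. RPL9 stood at 686, 686 and 704 CPM with lovastatin alone, 823, 846 and 852 CPM with SGA360 and 912, 922 and 984 CPM with SGA315. It rose by 0.28 ± 0.027 with SGA360 (edgeR adjusted p = 3.92e-14) and 0.44 ± 0.027 with SGA315 (edgeR adjusted p = 5.5e-23). RPL37A, a small zinc-binding protein, had 578, 581 and 598 CPM with lovastatin alone, 703, 709.9 and 702 CPM with SGA360 and 738, 768 and 729 CPM with SGA315, with the 3 groups separate. Its log2 fold changes were 0.27 ± 0.027 and 0.35 ± 0.027 (edgeR adjusted p = 6.73e-14 and 9.69e-19). RPL39, which lines the tunnel through which the new protein leaves, had 349.9, 340.3 and 373 CPM with lovastatin alone, 417, 419.8 and 417 CPM with SGA360 and 464, 484 and 471 CPM with SGA315. It rose by 0.24 ± 0.028 and 0.42 ± 0.028 (edgeR adjusted p = 4.83e-11 and 3.97e-21).

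The acidic stalk, which recruits the GTPases of translation, is built from RPLP0, RPLP1 and RPLP2. RPLP0 had 2222, 2252 and 2299 CPM with lovastatin alone, 2548, 2538 and 2554 CPM with SGA360 and 2661, 2749.8 and 2638 CPM with SGA315, rising without overlap by 0.17 ± 0.026 and 0.25 ± 0.026 on the log2 scale (edgeR adjusted p = 3.95e-08 and 4.68e-13). RPLP2 had 563, 569 and 576 CPM with lovastatin alone, 598, 610.0 and 594 CPM with SGA360 and 672, 758 and 687 CPM with SGA315; its rise was 0.077 ± 0.029 with SGA360 (edgeR adjusted p = 0.0187) and 0.31 ± 0.029 with SGA315 (edgeR adjusted p = 5.88e-15). For RPLP1, 1 SGA360 library lay within the lovastatin range, with values of 1022, 1052 and 1070.1 CPM with lovastatin alone, 1041, 1212 and 1171 CPM with SGA360 and 1264, 1314 and 1241 CPM with SGA315. The RPLP1 changes were 0.12 ± 0.031 and 0.28 ± 0.031 (edgeR adjusted p = 0.000476 and 2.78e-12). The SGA360 calls of RPLP1 and RPLP2 were lost under DESeq2 (DESeq2 adjusted p = 0.091 and 0.0934). That of RPLP2 was also lost when any single library of the comparison was left out (edgeR adjusted p from 0.0533 to 0.191), and that of RPLP1 without the second SGA360 library (edgeR adjusted p = 0.103).

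RPL5 and RPL11 form a complex with 5S ribosomal RNA, and RPL23 is another MDM2-binding member. RPL5 had 999, 979 and 1016 CPM with lovastatin alone, 1101, 1090.1 and 1091 CPM with SGA360 and 1213, 1217 and 1255 CPM with SGA315, separate in the 3 groups, with log2 fold changes of 0.13 ± 0.026 and 0.30 ± 0.026. RPL11 changed by 0.11 ± 0.027 and 0.21 ± 0.027, and RPL23 by 0.11 ± 0.026 and 0.21 ± 0.026, all called (largest edgeR adjusted p of these 6 tests 0.000254). RPL3, near the site of peptide bond formation, rose by 0.20 ± 0.026 and 0.28 ± 0.026, and RPL10, which joins the large subunit late, by 0.22 ± 0.027 and 0.37 ± 0.027. RPL13A, a protein with a second role in silencing inflammatory mRNAs, rose by 0.26 ± 0.026 and 0.35 ± 0.026. For these 3 genes the largest edgeR adjusted p was 6.14e-10. RPL4, the large subunit member with the most counts, lay between 2285 and 2385 CPM without a ligand, between 2645 and 2700 CPM after SGA360 and between 2850 and 2943 CPM after SGA315.

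Of the small subunit, RPS29, a zinc-binding protein close to the decoding region, showed the second largest rise with SGA315. Its values were 221, 220.3 and 225 CPM with lovastatin alone, 254, 274 and 269 CPM with SGA360 and 307, 350.3 and 303 CPM with SGA315, where the second SGA315 library lay well above the other two. The rises were 0.26 ± 0.034 with SGA360 (edgeR adjusted p = 1.02e-09) and 0.53 ± 0.034 with SGA315 (edgeR adjusted p = 2.65e-22). RPS25, which several viral internal ribosome entry sites depend on, had 701, 698 and 737 CPM with lovastatin alone, 760.1, 757 and 787 CPM with SGA360 and 910.1, 947 and 955 CPM with SGA315. It rose by 0.11 ± 0.027 with SGA360 and 0.40 ± 0.027 with SGA315 (edgeR adjusted p = 0.000393 and 5.43e-21). RPS23, at the decoding centre, had 985, 979.9 and 1017 CPM with lovastatin alone, 1084, 1117 and 1099 CPM with SGA360 and 1272, 1294 and 1309 CPM with SGA315, with log2 fold changes of 0.15 ± 0.026 and 0.38 ± 0.026 (edgeR adjusted p = 1.57e-06 and 7.33e-21). RPS6, the substrate of the S6 kinases downstream of mTORC1, had 781, 788 and 817 CPM with lovastatin alone, 944, 921 and 933 CPM with SGA360 and 949, 1012 and 988 CPM with SGA315. All 3 groups of RPS6 were separate, with rises of 0.23 ± 0.027 and 0.31 ± 0.027 (edgeR adjusted p = 2.25e-11 and 4.06e-16).

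RPS19, the gene most often mutated in Diamond-Blackfan anaemia, rose by 0.13 ± 0.028 and 0.15 ± 0.028, and RPS3, at the entry of the mRNA channel, by 0.16 ± 0.027 and 0.29 ± 0.027 (largest edgeR adjusted p of these 4 tests 3.26e-05). RPSA, also described as a laminin receptor, rose by 0.14 ± 0.026 and 0.18 ± 0.026 (edgeR adjusted p = 4.23e-06 and 4.37e-09). RPS2, the member with the most counts, stood at 2687 to 2856 CPM with lovastatin alone, 2928 to 3022 CPM with SGA360 and 3070 to 3139 CPM with SGA315. RPS14, known from the 5q deletion syndrome, had 859.6, 921 and 874 CPM with lovastatin alone, 940.3, 935 and 906 CPM with SGA360 and 884, 892 and 829 CPM with SGA315. Its SGA360 rise was 0.068 ± 0.028 (edgeR adjusted p = 0.0296), a call that ended under DESeq2, under RLE scaling, with no filter on low counts, and without the first or the third lovastatin library or the first or the second SGA360 library, where the log2 fold change was 0.03 to 0.06. With SGA315 its log2 fold change was −0.027 ± 0.028 (edgeR adjusted p = 0.403; 95% interval −0.083 to 0.029). Scaled to library totals alone, this SGA315 value turned to 0.094 and was called higher (edgeR adjusted p = 0.00176).

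Against the rise of the family, RPS26, RPS15 and the paralog RPS27L fell. RPS26 lies where the mRNA leaves the small subunit and touches the bases before the start codon. Its levels were 285, 285 and 295 CPM with lovastatin alone, 240.3, 230.4 and 233 CPM with SGA360 and 232, 238 and 239 CPM with SGA315, without overlap between lovastatin alone and either ligand. RPS26 fell by 0.30 ± 0.028 on the log2 scale with SGA360 (edgeR adjusted p = 1.58e-14) and by 0.28 ± 0.029 with SGA315 (edgeR adjusted p = 6.96e-14). The 2 ligands differed by −0.012 ± 0.029 (95% interval −0.070 to 0.046). RPS15, whose tail reaches to the decoding site, had 339, 342 and 344 CPM with lovastatin alone, 323, 313 and 313 CPM with SGA360 and 299, 299.5 and 275 CPM with SGA315, a stepwise order with no overlap. It fell by 0.11 ± 0.028 with SGA360 (edgeR adjusted p = 0.000549), a change that turned to 0.0037 and was not called when libraries were scaled to totals alone, and by 0.23 ± 0.029 with SGA315 (edgeR adjusted p = 1.52e-10), or −0.11 when scaled to totals alone.
RPS27L, a paralog of RPS27 known as a p53 target, had 36.9, 34.9 and 37.0 CPM with lovastatin alone, 26.4, 26.5 and 27.2 CPM with SGA360 and 30.3, 28.3 and 28.2 CPM with SGA315. It fell by 0.44 ± 0.058 with SGA360 (edgeR adjusted p = 6.54e-10) and by 0.32 ± 0.058 with SGA315 (edgeR adjusted p = 1.33e-06). Its partner RPS27 rose by 0.21 ± 0.026 and 0.23 ± 0.026 (edgeR adjusted p = 1.09e-10 and 2.71e-12), at 764 to 792 CPM with lovastatin alone, 894 to 909 CPM with SGA360 and 913 to 925 CPM with SGA315. RPL24, which helps to bridge the subunits, had 356, 368 and 361 CPM with lovastatin alone, 332, 319 and 327 CPM with SGA360 and 375, 364 and 382 CPM with SGA315. It fell by 0.15 ± 0.027 with SGA360 (edgeR adjusted p = 2.72e-06), a call lost when scaled to library totals alone at −0.04, and with SGA315 its log2 fold change was 0.047 ± 0.027 (edgeR adjusted p = 0.119).

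**Figure D3:**
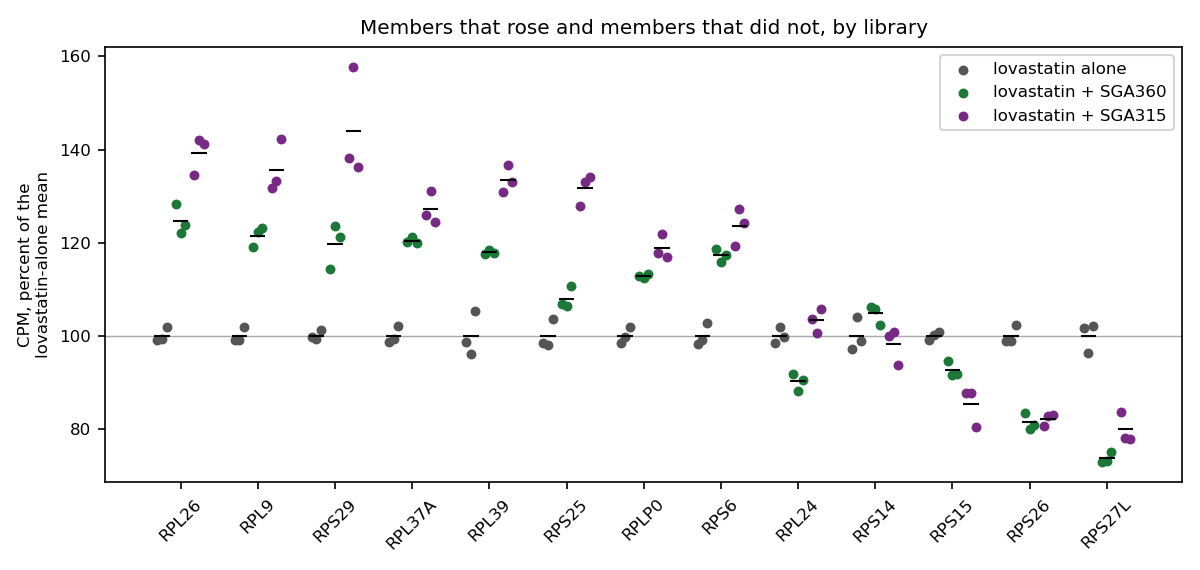
Level of 13 ribosomal protein genes in each library, as percent of the gene's mean with lovastatin alone (y axis), with each library as a point, the group's mean as a bar, and the genes on the x axis. The first 8 genes lie above 100 in every ligand library, while RPS15, RPS26 and RPS27L lie below it in all of them. For RPS15 the fall with SGA360 was not called when scaled to library totals alone.

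The members not called with SGA360 were RPL6, RPL7A, RPL8, RPL23A, RPL35, RPL38 and RPS13, named because they make up the whole count. Their log2 fold changes ran from −0.042 (RPL35) to 0.056 (RPS13). Scaled to library totals alone, all 7 were called higher, at 0.073 (RPL35) to 0.17 (RPS13). RPL35, beside the exit tunnel, was called with neither ligand: it had 355, 347 and 355 CPM with lovastatin alone, 343, 339 and 346 CPM with SGA360 and 340.2, 356 and 339.6 CPM with SGA315, and its 95% intervals were −0.096 to 0.012 for SGA360 and −0.084 to 0.025 for SGA315. Scaled to library totals alone, RPL35 turned to 0.073 with SGA360 and 0.091 with SGA315 and was called higher with both (edgeR adjusted p = 0.0153 and 0.00231), while without the second SGA315 library it was called lower with SGA315, at −0.067 (edgeR adjusted p = 0.0348). RPL24, RPL35 and RPS14 were among the 4 members not called with SGA315, all 4 of which were called higher when scaled to library totals alone.

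The 2 ligands were compared directly at the matched dose and time, 1 pair, with p-values adjusted over all genes. Of the 77 members, 47 were lower with SGA360 than with SGA315 and 5 were higher, RPL18, RPL28, RPS14 and RPS15 among them, while 25 were not called. Over all genes tested, 20.9% were lower and 21.8% higher, 42.7% in all. The members' median log2 fold change was −0.08, against −0.01 over all genes, and the values of 52 members were all lower and of 5 all higher, where 24.6% of all genes were separated in each direction. Without the third SGA315 library, 3 of these 5 members were still called higher, and RPS14 was not. By subunit, 32 of 47 large and 15 of 30 small subunit members were lower, and no called difference reached 1.25-fold. How many of all genes reached that size was not counted. RPS25 differed most, by −0.29 ± 0.027 (edgeR adjusted p = 3.12e-14), followed by RPS29 with −0.27 ± 0.033, RPLP2 with −0.23 ± 0.029 and RPS23 with −0.23 ± 0.026. RPL34, at 227 to 235 CPM with SGA360 and 262 to 271 CPM with SGA315, differed by −0.21 ± 0.029 (edgeR adjusted p = 1.33e-08). The 5 members higher with SGA360 differed by 0.074 (RPL28) to 0.12 (RPS15). Of these, RPL18 stood at 732 to 745 CPM with SGA360 and 665 to 707 CPM with SGA315 (edgeR adjusted p = 0.00246). RPL28 overlaps UBE2S, whose own counts came to more than 10% of those of RPL28, so reads of the pair may be shared and the value is uncertain; the same holds for RPL17, RPL36, RPL36A and RPS10 with other overlapping genes. Members for which no difference was called include RPS27 (−0.023 ± 0.026, 95% interval −0.074 to 0.029), RPSA (−0.097 to 0.0058) and RPS19 (−0.073 to 0.037).

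The difference between the ligands varied with base composition across the members. Across the 77 members, GC content of the coding sequence (GENCODE 29) ran from 42.1 to 63.4%, and its Spearman correlation with the log2 fold change of SGA360 against SGA315 was 0.51 (Pearson 0.50). Across 12916 tested genes the same correlation was 0.12 (Pearson 0.099). The points share libraries and depth, and genes are not independent replicates, so this is a description; the part of library preparation in it was not tested. In the 26 members with the lowest GC content (42.1 to 47.9%), 0 were higher and 21 lower with SGA360 than with SGA315, with a median of −0.12. In the 26 with the highest (54.2 to 63.4%), 5 were higher and 9 lower, with a median of −0.02. Among all genes tested, 21.8% were called higher and 20.9% lower in this comparison. The shares among other genes of the same GC range were not counted. Against lovastatin alone, the Spearman correlation with GC content was −0.41 for SGA315 and −0.15 for SGA360, beside −0.15 and −0.12 across the 12916 genes. For length of the coding sequence, 75 to 1281 nt, it was 0.04 for SGA360, −0.04 for SGA315 and 0.08 between the ligands.

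**Figure D4:**
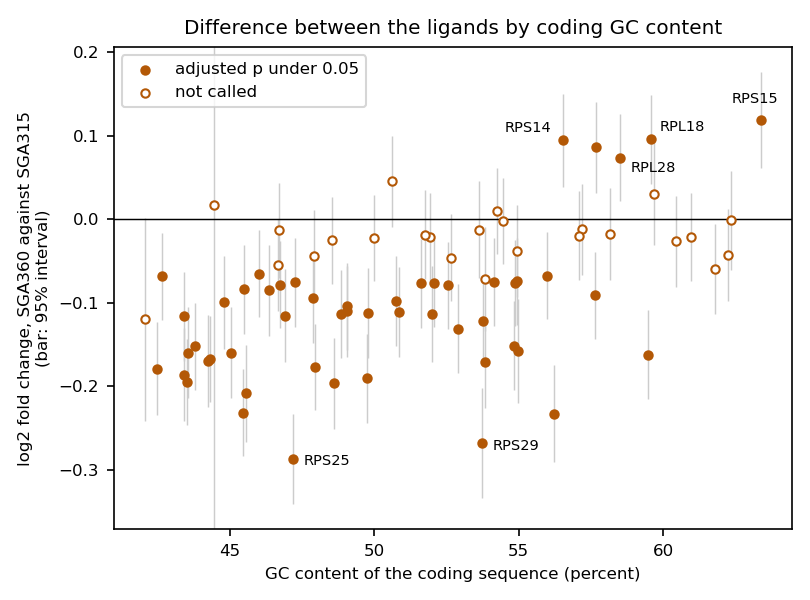
Log2 fold change of SGA360 against SGA315 (y axis, 95% interval as a bar) by GC content of the coding sequence in percent (x axis) for the 77 ribosomal protein genes; the interval of RPL39L runs past the axis. The 5 called members over 0 all lie among the 26 GC-richest members (54.2 to 63.4%), together with 9 called members under 0. Among all genes tested, 21.8% were called over 0 and 20.9% under 0.

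Members with and without the tract at the annotated start overlapped in their changes. With SGA360, 40 of the 45 members with a tract were higher and 1, RPL24, lower, at a median log2 fold change of 0.14, and 13 of the 17 without one were higher and 3, RPS15, RPS26 and RPS27L, lower, at a median of 0.19. With SGA315 the counts were 42 higher and 0 lower of 45, at a median of 0.26, and 14 higher and the same 3 lower of 17, at a median of 0.20. Among all genes tested, 31.4% were called higher and 31.4% lower with SGA360, and 36.1% and 33.2% with SGA315. Among other motifs searched on both strands of the windows, the ETS core CCGGAAG was in 22 of the 62 members, 35.48%, against 12.16% of all genes and 21.12% of the 11398 other tested genes. The YY1 core AAGATGGC was in 6 members, 9.677%, against 3.523% and 6.045%. The TATA box TATAAA was in 5 members, 8.065%, against 13.99% and 8.537%. The E-box CACGTG was in 4, 6.452%, against 8.775% and 12.33%. GGGCGG, the SP1 core, was in 37, 59.68%, which is above the 48.3% of all genes and below the 75% of the other tested genes. CCAAT was in 22, 35.48%, against 39.72% and 42.36%. A match says only that these letters occur in the window.
Small nucleolar RNAs, which guide the modification of ribosomal RNA, are encoded within the genes of 29 members, 60 such RNA genes in all. Of these hosts, 26 were higher and 0 lower with SGA360 and 29 higher and 0 lower with SGA315, with medians of 0.17 and 0.27. The 48 other members had 40 higher and 4 lower, and 41 higher and 3 lower, with medians of 0.12 and 0.22. The shares over all genes were 31.4% higher and 31.4% lower with SGA360, and 36.1% and 33.2% with SGA315. The difference between hosts and other members was not tested. The members lie on 21 chromosomes, with 12 on chromosome 19. Pseudogenes named after a member were annotated for 75 members, 17 in the median and 137 for RPL21, so reads shared with such copies make absolute levels uncertain.

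Several paralogs and relatives of the family fell. RPL39L, a copy of RPL39 known from the testis, was nearly silent, with counts of 15, 18 and 22 with lovastatin alone, 36, 47 and 23 with SGA360 and 39, 32 and 25 with SGA315. Its log2 fold changes, 0.85 ± 0.24 and 0.83 ± 0.24, were the largest of the members (edgeR adjusted p = 0.00148 and 0.00196), with 95% intervals of 0.38 to 1.33 and 0.35 to 1.32. RPL22, which binds viral and cellular RNAs, rose by 0.11 ± 0.028 and 0.28 ± 0.028, and RPL36A rose by 0.22 ± 0.028 and 0.34 ± 0.028 (largest edgeR adjusted p of these 4 tests 0.000465). Of 6 relatives whose symbols the rule does not take, 1 rose and 5 fell in each comparison with lovastatin alone, with median log2 fold changes of −0.22 and −0.23. Over all genes, 31.4% and 36.1% were called higher and 31.4% and 33.2% lower. The riser was RPL22L1, a paralog of RPL22, at 24.7, 23.2 and 25.7 CPM with lovastatin alone, 26.5, 29.3 and 31.4 CPM with SGA360 and 30.4, 34.2 and 36.6 CPM with SGA315, with 0.23 ± 0.067 and 0.45 ± 0.066 (edgeR adjusted p = 0.00201 and 1.55e-08). RPL36AL, a retrocopy of RPL36A that makes a nearly identical protein, had 115, 108 and 115 CPM with lovastatin alone, 80.7, 85.8 and 86.9 CPM with SGA360 and 94.4, 91.6 and 95.5 CPM with SGA315. It fell by 0.42 ± 0.038 with SGA360 (edgeR adjusted p = 1.17e-15) and by 0.27 ± 0.038 with SGA315 (edgeR adjusted p = 3.83e-09). RPL7L1 fell by 0.20 and 0.24, and RPL26L1 by 0.29 and 0.31 (largest edgeR adjusted p of these 4 tests 0.000289).
Ribosomal proteins made as fusions with ubiquitin or a protein like it did not all rise. RPS27A, a member, encodes ubiquitin joined to a small subunit protein and had 770.3, 764 and 794 CPM with lovastatin alone, 813, 830.1 and 833 CPM with SGA360 and 904, 945 and 903 CPM with SGA315. It rose by 0.089 ± 0.026 and 0.24 ± 0.026 (edgeR adjusted p = 0.00279 and 1.73e-12), the SGA360 call being lost without the first lovastatin library (log2 fold change 0.067). FAU, a ubiquitin-like protein joined to a small subunit protein, had 271, 264 and 269 CPM with lovastatin alone, 237, 240.3 and 224 CPM with SGA360 and 235, 243 and 214 CPM with SGA315. It fell by 0.19 ± 0.032 and 0.21 ± 0.032 (edgeR adjusted p = 2.49e-07 and 2.17e-08). FAU starts with a tract of 9 bases. RPL36AL has none by the rule used here, with 3 pyrimidines from the annotated base, but the 10 bases before that base are all C or T:
FAU, chr11:65122115-65122144, minus strand: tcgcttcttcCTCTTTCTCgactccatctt
RPL36AL, chr14:49620607-49620636, minus strand: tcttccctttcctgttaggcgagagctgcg

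Other genes whose mRNAs are known to start with the same tract, mostly translation factors, were also called higher more than lower. Of 18 such genes, which take in HNRNPA1, NPM1, TPT1, NACA and BTF3 beside the factors, 11 (61.1%) were higher and 2 (11.1%) lower with SGA360 (median 0.10) and 18 higher and 0 lower with SGA315 (median 0.25), where 31.4% and 36.1% of all genes were called higher. Between the ligands, 17 were lower with SGA360 and 0 higher (median −0.19), where 20.9% of all genes were lower and 21.8% higher. Scaled to library totals alone, the SGA360 calls were 16 higher and 0 lower. EEF1A1, which brings aminoacyl-tRNA to the ribosome, had 12538, 12779 and 13175 CPM with lovastatin alone, 14189, 14101 and 14388 CPM with SGA360 and 16401, 16248 and 16479 CPM with SGA315, with log2 fold changes of 0.15 ± 0.027 and 0.35 ± 0.027. EEF2, the translocation factor, rose by 0.21 ± 0.026 and 0.39 ± 0.026 (largest edgeR adjusted p of these 4 tests 2.98e-06). EIF4B, a helper of the initiation helicase, fell by 0.11 ± 0.028 with SGA360 (edgeR adjusted p = 0.000308), a call that ended when scaled to library totals alone at −0.00017, and rose by 0.31 ± 0.028 with SGA315 (edgeR adjusted p = 1.6e-15). Its direct difference was −0.42 ± 0.028 (edgeR adjusted p = 1.03e-20). HNRNPA1, an RNA-binding protein, likewise fell by 0.15 ± 0.026 with SGA360, not called when scaled to library totals alone at −0.03, and rose by 0.11 ± 0.026 with SGA315 (edgeR adjusted p = 1.61e-06 and 0.000114). Of the 12 genes of this list with a promoter window, 11 had the tract at the annotated start, among them these 2:
EEF1A1, chr6:73521013-73521042, minus strand: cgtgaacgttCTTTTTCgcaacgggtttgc
EEF2, chr19:3985444-3985473, minus strand: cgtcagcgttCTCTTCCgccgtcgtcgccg

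Mitochondrial ribosomal proteins, which build the separate ribosome of that organelle, mostly fell. Of 76 tested genes, 10 (13.2%) were higher and 44 (57.9%) lower with SGA360, where 31.4% of all genes were higher and 31.4% lower. Their median log2 fold change was −0.17. With SGA315, 11 (14.5%) were higher and 51 (67.1%) lower, where 36.1% and 33.2% of all genes were. The median with SGA315 was −0.25. Scaled to library totals alone the splits were 17 higher and 27 lower, and 17 higher and 37 lower, with medians of −0.05 and −0.13. With that scaling 44.1% and 47.2% of all genes were higher and 21.4% and 24.8% lower. Between the ligands 20 (26.3%) were higher and 9 (11.8%) lower with SGA360 (median 0.04). The share higher was near the 21.8% of all genes, of which 20.9% were lower. MRPL12, at 97.2, 105 and 102 CPM with lovastatin alone, 76.1, 75.6 and 73.0 CPM with SGA360 and 62.1, 64.7 and 57.7 CPM with SGA315, fell by 0.43 ± 0.04 and 0.72 ± 0.042 (edgeR adjusted p = 3.05e-15 and 1.85e-24). MRPL27 fell by 0.64 ± 0.046 and 0.58 ± 0.046 (edgeR adjusted p = 6.6e-20 and 5.13e-18). Of the 69 with a promoter window, 6 had the tract at the annotated start.

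**Figure D5:**
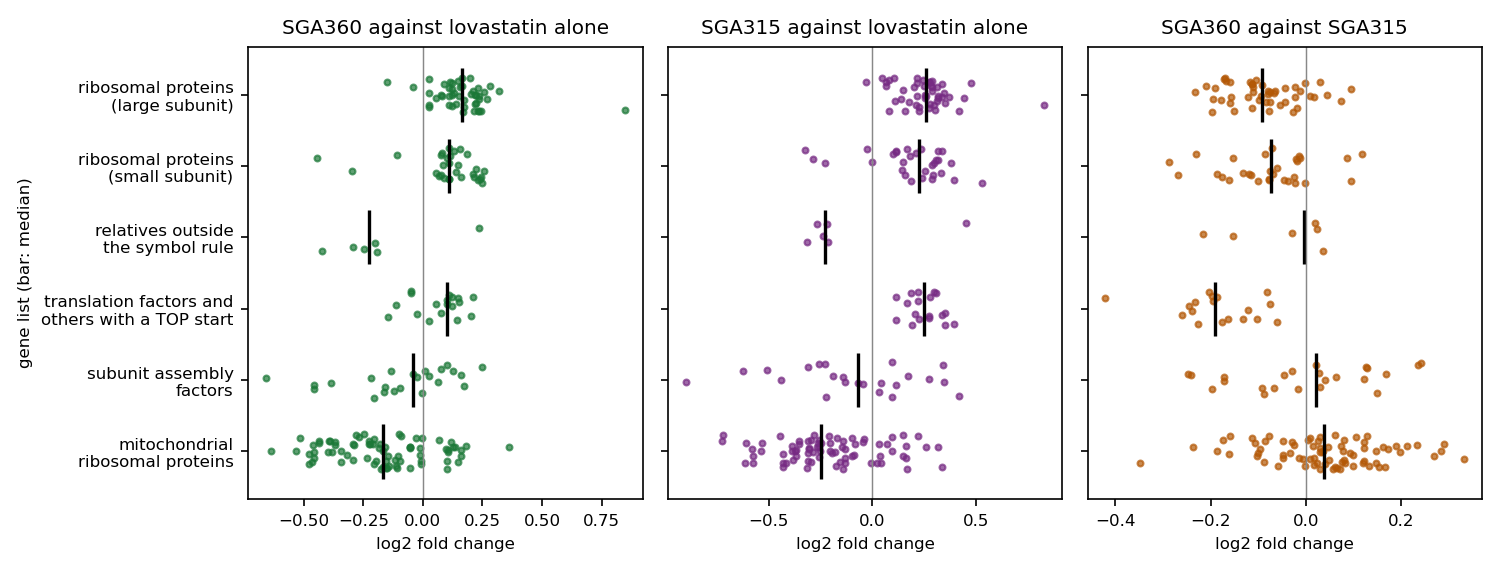
Log2 fold changes (x axis) of large and small subunit ribosomal protein genes, their relatives, translation factors and other genes with the tract, subunit assembly factors and mitochondrial ribosomal proteins (y axis), with 1 point per gene and a bar at the median, in the 3 comparisons. Cytosolic ribosomal protein genes lie mostly above 0 with each ligand and mitochondrial ones mostly below, also in the median when scaled to library totals alone, while the assembly factors' medians (−0.04 and −0.07) turn positive with that scaling.

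Genes that control ribosomal protein mRNAs were called in both directions, at shares near those over all genes. Of 20 genes of mTORC1 and its translational effectors, 5 (25%) were higher and 8 (40%) lower with SGA360, where 31.4% of all genes were higher and 31.4% lower. With SGA315, 9 (45%) were higher and 6 (30%) lower, where 36.1% and 33.2% of all genes were. The medians were 0.04 and 0.05; when scaled to library totals alone the splits were 11 and 7, and 11 and 4. The mTORC1 inhibitor DDIT4 had 107, 106 and 106 CPM with lovastatin alone, 149, 158 and 150.2 CPM with SGA360 and 181, 192 and 177 CPM with SGA315, a rise of 0.53 ± 0.035 and 0.79 ± 0.035 (edgeR adjusted p = 2.31e-21 and 6.11e-31). SESN3, another inhibitor, rose by 0.79 ± 0.043 and 0.59 ± 0.044 (edgeR adjusted p = 8.07e-26 and 2.5e-19). AKT1S1, also an inhibitor, fell by 0.48 and 0.37 (edgeR adjusted p = 4.03e-19 and 1.67e-14). LARP1, which binds the tract, fell by 0.16 and 0.16 (edgeR adjusted p = 1.58e-07 and 2.63e-07). Over the 14 alternatives the LARP1 values were −0.19 to −0.048 and −0.18 to −0.037, and not every alternative called them. DEPTOR, an inhibitory subunit of mTOR complexes, fell by 0.69 ± 0.099 with SGA360 and rose by 0.38 ± 0.085 with SGA315 (edgeR adjusted p = 1.02e-08 and 6.33e-05). The cap-binding protein gene EIF4E lay between 91.6 and 94.7 CPM in the lovastatin libraries, between 61.4 and 66.7 CPM after SGA360 and between 52.0 and 57.6 CPM after SGA315, and fell by 0.54 ± 0.041 and 0.76 ± 0.043. Its scaffold EIF4G1 fell by 0.48 ± 0.026 and 0.55 ± 0.027 (largest edgeR adjusted p of these 4 tests 9.84e-19).

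Among factors known to act at ribosomal protein promoters and in p53 sensing, 4 of 14 were higher and 4 lower with SGA360, 28.6% each, and 5 higher and 4 lower with SGA315, 35.7% and 28.6%, shares near those over all genes (6 and 2, and 7 and 3, when scaled to totals alone). Their median log2 fold changes were 0.05 and −0.0024. MYC, an activator of ribosome production, had 211, 218 and 205 CPM with lovastatin alone, 116, 116 and 113 CPM with SGA360 and 129, 128 and 127 CPM with SGA315. It fell by 0.87 ± 0.032 and 0.72 ± 0.032 (edgeR adjusted p = 8.22e-35 and 1.69e-30). MYCN rose by 0.26 ± 0.056 with SGA360 and fell by 0.57 ± 0.064 with SGA315 (edgeR adjusted p = 4.35e-05 and 2.86e-12). The p53 target CDKN1A was low, at 3.98 to 5.32 CPM with lovastatin alone, 1.86 to 2.53 CPM with SGA360 and 2.03 to 2.30 CPM with SGA315, and fell by 1.09 ± 0.17 and 1.17 ± 0.18 (edgeR adjusted p = 8.24e-08 and 2.69e-08).
A list of 23 genes held chaperones of single ribosomal proteins, late assembly factors and NACA, which is also counted among the genes with the tract. Of these 23, 5 (21.7%) were higher and 11 (47.8%) lower with SGA360. With SGA315, 6 (26.1%) were higher and 11 (47.8%) lower (medians −0.04 and −0.07). Over all genes, 31.4% were higher and 31.4% lower with SGA360, and 36.1% and 33.2% with SGA315. Scaling to totals only gave 11 and 6, and 10 and 8, with medians of 0.07 and 0.05. GRWD1, the chaperone of RPL3, had 76.4, 76.1 and 76.0 CPM with lovastatin alone, 48.2, 47.8 and 48.9 CPM with SGA360 and 40.8, 41.9 and 39.6 CPM with SGA315. It fell by 0.66 ± 0.043 and 0.90 ± 0.045 (edgeR adjusted p = 8.84e-22 and 8.66e-28). NIP7, an assembly factor of the large subunit, fell by 0.38 ± 0.039 and 0.51 ± 0.041, and NMD3, its export adaptor, rose by 0.25 ± 0.039 and 0.42 ± 0.039 (largest edgeR adjusted p of these 4 tests 1.14e-07).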

How the data were processed

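The authors deposited raw counts of reads for each RefSeq transcript entry in each library, per the file headers. The submitters' processing notes list TopHat2 2.0.13, HTSeq 0.5.4p3 and the build hg19. Not given in the sources used here are the annotation release, the strand setting and what was done with reads of several matches. Poly(A) libraries came from Trizol RNA, per the labels' protocols.

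Of 65325 entries, 64346 were named by a RefSeq table (GRCh38.p14) and 545 by GENCODE 29; 434 without a name (0.255% of counts) were left out. The entry with the highest total stood for each gene, because entries repeat shared reads (in 41 members with 2 or more entries the second held 99.98% of the highest in the median), and 65 genes with identical counts were dropped. All 9 libraries entered 1 fit (edgeR 4.0.16 in R 4.3.3, quasi-likelihood F test, TMM, filterByExpr with minimum count 10 and total 15, 1 coefficient per group, 6 residual degrees of freedom). All 77 members passed the filter. Calls are Benjamini-Hochberg adjusted p-values under 0.05 among the 14654 genes; unless DESeq2 is named, every adjusted p is edgeR's. The limit of a count of 0, 3 counts, is 0.174 to 0.236 CPM and covers counting error only. DESeq2 1.42.0 and the other alternatives are in the closing section.

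The members and lists were chosen with earlier results of these data known. Named by rule were, in each comparison, called members with the 5 largest log2 changes up and the 5 largest down, the 3 members with the highest level, genes fixed by name, and up to 4 genes per list with the smallest p; some genes that this rule takes are not reported here, though they stay in all counts and medians. RPL6, RPL7A, RPL8, RPL23A, RPL35, RPL38, RPS13 and LARP1 were chosen after their values were seen. Protein sequences were not used here. Levels of different genes were not compared, as transcript lengths are uncertain.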

Additional observations from a re-analysis of the deposited data

How the results depend on the processing

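Under the 14 alternatives per comparison, 61 to 75 members were called with SGA360 (70 as reported), 69 to 77 with SGA315 (73) and 43 to 54 between the ligands (52), and no member called both times changed sign. Scaling to library totals alone moved the members' median to 0.26 and 0.37 for SGA360 and SGA315, with 2 lower for SGA360, that of the large subunit to 0.28 and 0.38 with 0 lower for SGA360, and that of the small subunit to 0.23 and 0.34. It moved the medians of the relatives to −0.11 and −0.11, of the genes with the tract to 0.22 and 0.37 (0 lower for SGA360), of the mTORC1 genes to 0.16 and 0.17 (11 higher for SGA360), and of the assembly factors to 0.071 and 0.050 (11 and 10 higher, 6 lower for SGA360). The promoter and p53 genes moved to 0.17 and 0.12 (2 lower for SGA360) and the mitochondrial genes to −0.054 and −0.13 (17 and 17 higher, 27 lower for SGA360). It turned these log2 fold changes positive, for SGA360 NPM1 at 0.090, RPL35 at 0.073 and RPS15 at 0.0037, and for SGA315 RPL35 at 0.091 and RPS14 at 0.094. These shifts follow from the scaling, which moves all genes by about 0.1.

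DESeq2 called 3 assembly factors higher with SGA360, 6 and 5 mitochondrial genes higher with SGA360 and SGA315, 5 of them lower with SGA360 than SGA315, and 3 promoter and p53 genes higher with SGA315. With no filter on low counts 3 assembly factors were higher with SGA360. The relatives' median between the ligands turned to 0.0054 (RLE), 0.0052 (DESeq2) and 0.0012 (no filter). Taking the lowest accession of each gene gave the assembly factors −0.096 and −0.13 and the promoter and p53 genes 0.014 with SGA315. The cause was not tested.

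Leaving out each library in turn gave these ranges. For SGA360 the medians were 0.12 to 0.15 (members), 0.13 to 0.17 (large subunit), 0.072 to 0.10 (genes with the tract, 2 to 4 lower), 0.011 to 0.048 (mTORC1), −0.077 to −0.051 (assembly, 1 to 4 higher, under 4 without each library but the second SGA360 one), −0.012 to 0.056 (promoter and p53) and −0.20 to −0.17 (mitochondrial, 6 to 9 higher). For SGA315 they were 0.22 to 0.26 (members), 0.22 to 0.27 (large subunit, 0 to 1 lower, the 1 being RPL35 without the second SGA315 library), 0.0057 to 0.086 (mTORC1), −0.11 to −0.053 (assembly), −0.031 to 0.0092 (promoter and p53, 3 to 5 higher) and 6 to 10 mitochondrial genes higher. Between the ligands 3 to 6 members were higher with SGA360, 1 to 3 of the large and 1 to 3 of the small subunit, and the relatives had 1 to 2 lower and a median of −0.035 to −0.0075. Uncalled single genes crossed 0: with SGA360 RPL23A (−0.018 to 0.029), RPL38 (−0.0027 to 0.041), RPL6 (−0.00058 to 0.022) and RPL7A (−0.015 to 0.038), with SGA315 RPS14 (−0.063 to 0.0047), and between the ligands RPL26L1 (−0.040 to 0.10), RPL35 (−0.024 to 0.011), RPS19 (−0.053 to 0.019), FAU (−0.029 to 0.059), RPL39L (−0.16 to 0.13) and RPS26 (−0.032 to 0.0017).

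Replicate numbers pair no samples by the labels, and same-numbered libraries had correlated deviations of 0.011 to 0.085, none of 9 over 0.1, although 8 of 9 libraries correlated best with their own number. With the replicate number as a block, 72, 73 and 54 members were called in the 3 comparisons.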
